A study of Mus musculus with 7 samples.

Results

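The neurexophilin genes Nxph1, Nxph2, Nxph3 and Nxph4 and the neurexin genes Nrxn2 and Nrxn3 were followed in the subpallium of mouse embryos at E12.5, in mid-gestation. They were found by matching the transcript accession of each array probe to these symbols, which gave 6 genes with 9 probes among 17178 named genes and 41174 probes. The genes were picked with the difference between the groups already known, so their differences are given as a description, with no p-value, and counts of them past the threshold of the fit over all genes stand only beside the share for all genes. The tissue was microdissected ganglionic eminences and septum of female CD-1 embryos, with 1 embryo on each of 7 single-colour arrays. The 3 arrays labelled Otx2 cKO came from embryos in which a floxed allele of Otx2, a homeodomain transcription factor gene of the forebrain, was recombined by RxCre. Per the series description this Cre line acts throughout the forebrain except its caudal dorsomedial domain, which holds the choroid plexus and cortical hem. The 4 control arrays are labelled only as controls, with no statement of whether those embryos carried the floxed allele or Cre. Litter 2 gave cKO replicates 1 and 3 and control replicates 2 and 3, and each other embryo came from a litter of its own.

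Neurexins are presynaptic adhesion proteins made in long alpha and short beta forms from separate promoters, and their extracellular LNS domains bind partners across the synaptic cleft, among them neuroligins, LRRTM proteins and, through secreted adaptors, glutamate receptors. Neurexophilins are small secreted glycoproteins that bind alpha-neurexins at an extracellular LNS domain, and in the rodent brain each is confined to particular neuron types. Nxph1 is known in the embryonic forebrain as a gene of GABAergic interneurons that leave the medial ganglionic eminence (MGE). Synapses are sparse at this age, and the levels describe transcripts in whole dissected tissue, whose cells of origin were not resolved.

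The upstream sequence of Nxph1 and Nxph2, the pair with the largest differences, is shown so that homeodomain motifs can be looked for. RefSeq windows of the GRCm38.p6 build were matched for Nxph1, Nxph2 and Nrxn3, with 3 alternative starts for Nrxn3, and the 250 bases before each start were read 5′ to 3′ on the plus strand. The Nxph1 window is chr6:8949769-8950018 and the Nxph2 window is chr2:23320996-23321245. Capitals mark AAGTG.
Nxph1: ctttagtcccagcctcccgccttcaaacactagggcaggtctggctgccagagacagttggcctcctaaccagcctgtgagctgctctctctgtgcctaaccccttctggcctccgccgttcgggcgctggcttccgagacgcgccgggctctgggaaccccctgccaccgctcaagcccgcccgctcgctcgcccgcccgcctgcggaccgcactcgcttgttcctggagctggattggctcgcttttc
Nxph2: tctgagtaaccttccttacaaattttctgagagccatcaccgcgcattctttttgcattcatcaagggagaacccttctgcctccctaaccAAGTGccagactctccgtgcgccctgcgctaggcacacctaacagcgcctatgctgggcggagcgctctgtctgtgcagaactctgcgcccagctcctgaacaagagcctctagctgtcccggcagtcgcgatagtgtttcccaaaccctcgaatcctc
The motifs searched on both strands of these windows were TAATCC, the site of OTX-type homeodomains, TAATTA, a site shared by LIM and many other homeodomains, and AAGTG, the core bound by NK2-type homeodomains. TAATCC and TAATTA were in none of the 5 windows, and 6.25% and 4.84% of 32851 such windows before annotated starts hold them. AAGTG was found once in the Nxph2 window, beginning 159 bases before the start, and in 2 of the 3 Nrxn3 windows, and 40.7% of all windows hold it. The Nxph1 window was 66.8% G or C with 20 CpG dinucleotides, and the Nxph2 window was 55.6% G or C with 13.

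Between 68.4% and 72.2% of the spots on an array were well above background, and no spot was saturated. The only Otx2 probe ran against the label. Its log2 level was 1.73, 2.27 and 1.72 in cKO replicates 1 to 3, against 0.13, 0.48, 0.42 and 0.50 in control replicates 1 to 4, so it was 2.88-fold higher in the arrays labelled Otx2 cKO. The labels do not say which part of the gene the allele removes, so the probe may lie outside it and check nothing; the groups are called by their labels and every direction below rests on them. Otx2 had 10 spots per array, of which 1 on cKO replicate 2 was left out as an outlier.

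Nxph1 was lower on all 3 arrays labelled Otx2 cKO, by about the same amount on both of its probes. On its brighter probe the signal was 43.2%, 37.5% and 43.3% of the array's 75th percentile in cKO replicates 1 to 3, against 76.0%, 77.5%, 76.4% and 69.2% in control replicates 1 to 4. The groups did not overlap, and cKO replicate 2 was the lowest array. The means were 41.3% ± 3.32 in cKO and 74.8% ± 3.77 in control (SD, n = 3 and 4). On the log2 scale the difference was -0.86 ± 0.09 (limma's moderated SE), or 1.81-fold lower in cKO.

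The dimmer Nxph1 probe gave 15.5%, 11.6% and 12.4% in cKO replicates 1 to 3, against 29.1%, 24.5%, 18.5% and 18.9% in control replicates 1 to 4. Its groups did not overlap either, although the controls were spread more widely, with replicates 1 and 2 above replicates 3 and 4. The difference on this probe was -0.77 ± 0.19 on the log2 scale, or 1.71-fold lower in cKO.

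Nxph2 was measured only in the controls. Its single probe had processed signals of 13.5 ± 8.80, 3.08 ± 10.1 and -3.69 ± 10.8 intensity units in cKO replicates 1 to 3, against 137.2 ± 16.9, 53.7 ± 13.0, 58.3 ± 10.9 and 59.9 ± 10.65 in control replicates 1 to 4, where each error is the scanner software's own estimate for the spot. The probe was well above background on 0 of 3 cKO arrays and on 4 of 4 control arrays. The controls themselves were close to the lower limit, at 5.45%, 2.65%, 3.04% and 2.71% of the array's 75th percentile, with replicate 1 highest. With the signals at face value, Nxph2 was at least 5.62-fold lower in cKO. This takes for each cKO array the higher of the probe's own signal and a common floor. The floor is the highest of the 7 arrays' lowest signals well above background. With each array's own lowest such signal as the floor, the bound was 6.70-fold. Neither bound includes the scanner error of the cKO spots, so they are not firm lower limits on the fold difference. The 5.62-fold bound, -2.49 in log2, also leaned on control replicate 1. Without that array the log2 difference with the common floor was -2.25.

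Both bounds belong to background-subtracted signals. In the authors' deposited table of log2 values, which is not background-subtracted, Nxph2 had 5.57, 5.32 and 5.11 in cKO replicates 1 to 3, against 7.28, 6.40, 6.40 and 6.38 in control replicates 1 to 4. The groups did not overlap there, and the log2 difference was -1.28. It was -0.93 after normexp background correction with quantile normalization.

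**Figure D1:**
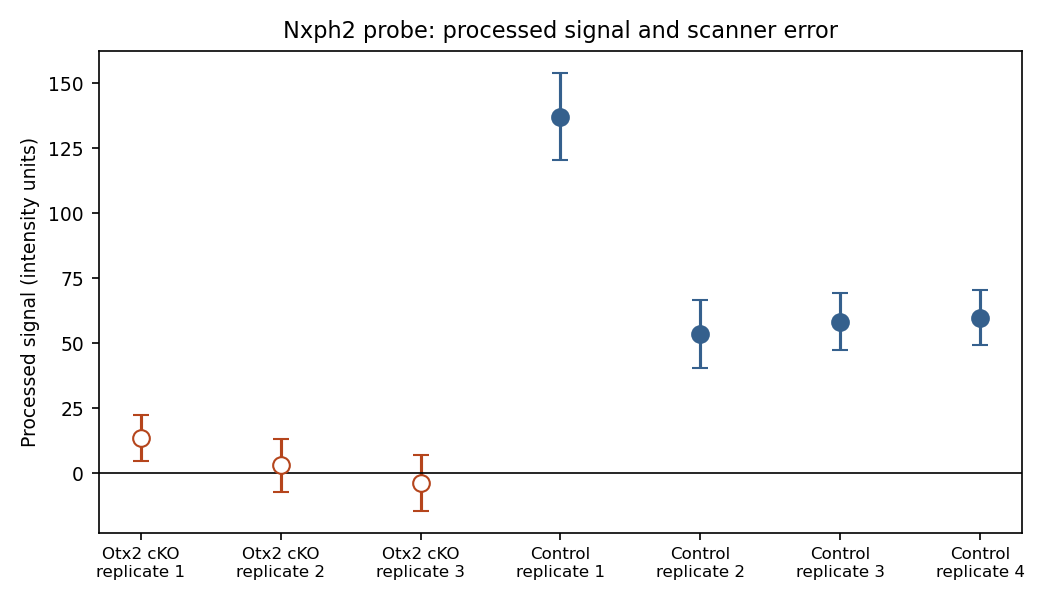
Processed signal of the single Nxph2 probe on each array in intensity units, with bars for the scanner software's error; open points were not well above background. The 3 arrays labelled Otx2 cKO lie between -3.69 and 13.5, and the 4 control arrays between 53.7 and 137.2.

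Nxph3 and Nxph4 showed no separation of the groups. Nxph3, which in the mouse brain marks cortical and cerebellar neuron groups, had signals of 181.8%, 162.5% and 125.3% of the array's 75th percentile in cKO replicates 1 to 3, against 168.2%, 167.2%, 210.2% and 159.6% in control replicates 1 to 4. The lowest array was cKO replicate 3 and the highest was control replicate 3, and the other 5 arrays lay close together. The log2 difference was -0.18 ± 0.16.

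Nxph4, the other neurexophilin with a strong signal, had 186.7%, 162.4% and 175.4% in cKO replicates 1 to 3, against 135.9%, 199.3%, 178.9% and 177.8% in control replicates 1 to 4. All 3 cKO arrays lay inside the control range, and control replicate 1 was the lowest of the 7. The log2 difference was 0.03 ± 0.14, and its sign changed with the scaling, being -0.07 when arrays were centred on their medians.

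Nrxn2 was lower in the arrays labelled Otx2 cKO on both of its probes. The brighter probe had 441.4%, 441.1% and 422.9% of the array's 75th percentile in cKO replicates 1 to 3, against 573.8%, 788.3%, 762.4% and 546.2% in control replicates 1 to 4. The groups did not overlap. The cKO arrays were nearly equal, and among controls replicates 2 and 3, both of litter 2, were the higher pair. The means were 435.1% ± 10.6 in cKO and 667.7% ± 125.3 in control (SD, n = 3 and 4). The log2 difference was -0.60 ± 0.15, or 1.51-fold lower.

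The other Nrxn2 probe had 335.3%, 339.6% and 362.8% in cKO replicates 1 to 3, against 440.6%, 563.5%, 589.04% and 472.1% in control replicates 1 to 4. Control replicates 2 and 3 were again the higher pair, and the groups did not overlap. The log2 difference on it was -0.57 ± 0.12, or 1.48-fold lower in cKO.

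Nrxn3 gave unlike answers on its 2 probes. The brighter probe had 45.5%, 50.4% and 47.6% in cKO replicates 1 to 3, against 58.96%, 59.7%, 72.1% and 57.9% in control replicates 1 to 4. Its groups did not overlap, and control replicate 3 stood above the other controls. The log2 difference was -0.37 ± 0.10, or 1.30-fold lower in cKO.

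The dim Nrxn3 probe had 2.50%, 1.28% and 15.1% in cKO replicates 1 to 3, against 2.37%, 3.63%, 2.35% and 2.77% in control replicates 1 to 4. The cKO group held both the lowest and the highest array, and cKO replicate 3 stood far above the rest. The log2 difference on this probe was 0.41 ± 0.77. Both probes carry the same transcript accession, and the sources used here do not say which Nrxn3 forms each one reads.

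**Figure D2:**
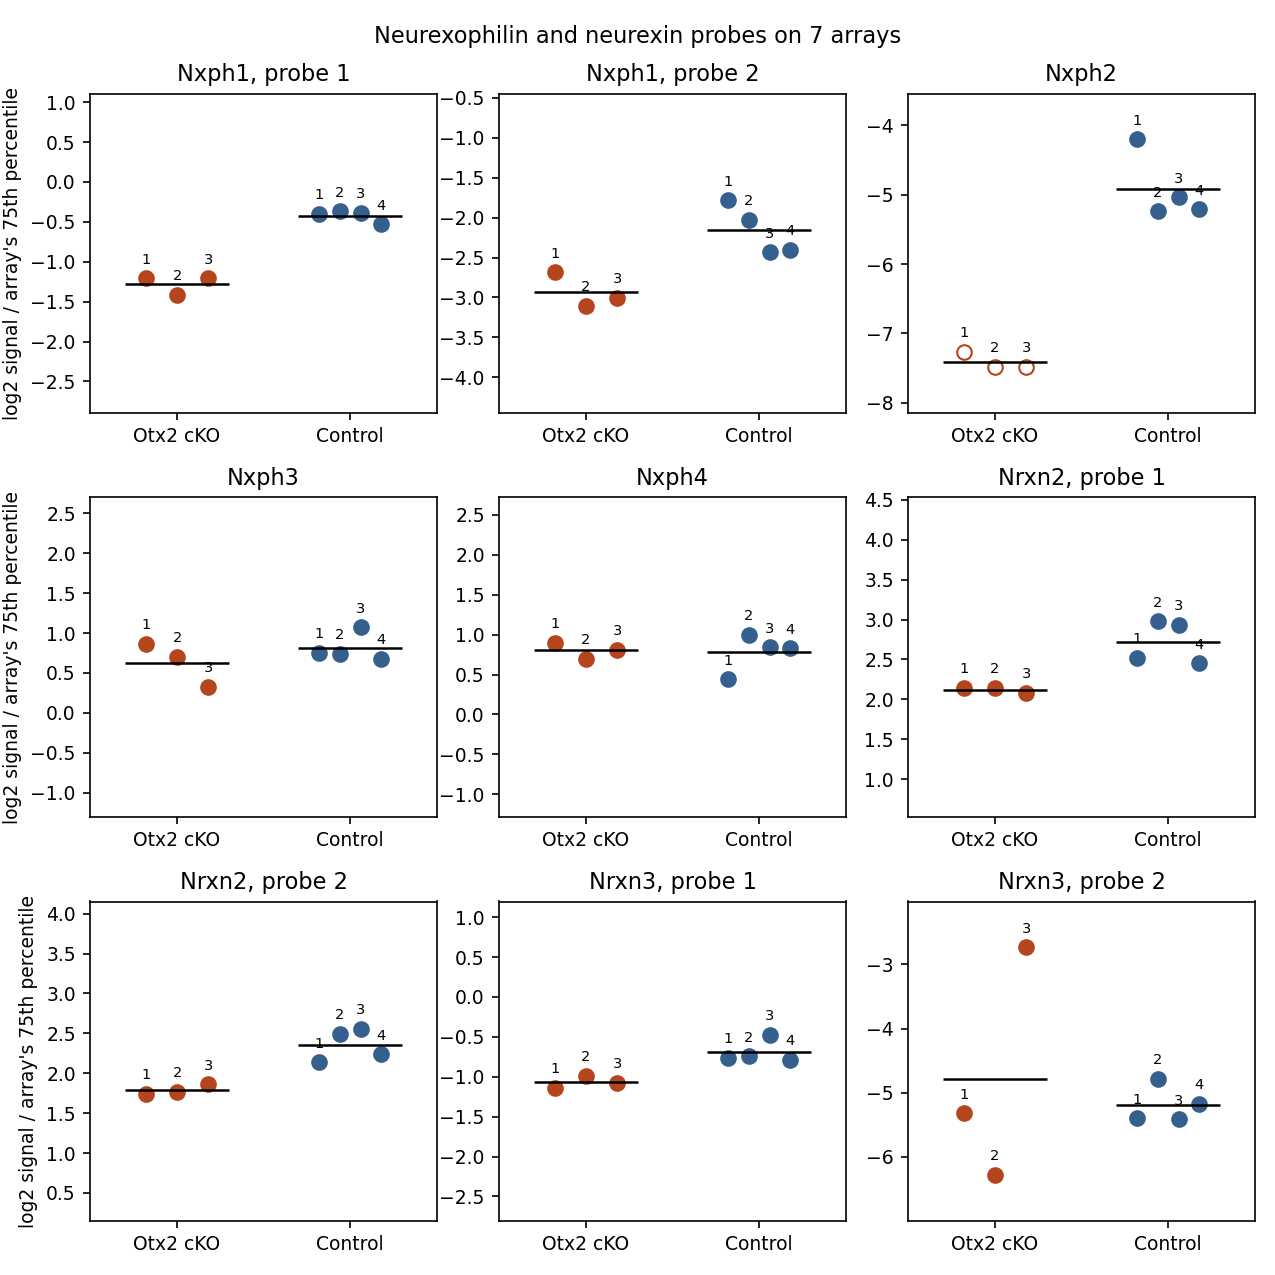
Level of each of the 9 probes on each array, as log2 of the signal over the array's 75th percentile, with Otx2 cKO left of control. Numbers are replicates, lines are group means and open points were not well above background; each axis spans at least 4 log2 units and its position differs between panels. The groups are apart on both Nxph1 probes, on Nxph2, on both Nrxn2 probes and on Nrxn3 probe 1, and overlap for Nxph3, Nxph4 and Nrxn3 probe 2.

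On the brightest probe of each gene, every array labelled Otx2 cKO lay below every control array for 4 of the 6 genes, as it did for 6.87% of all genes with a value on every array; the opposite order was found for 0 of the 6 and for 5.4% of all genes. The limma fit over all genes called 2 of the 6, Nxph1 and Nxph2, at an adjusted p of 0.05; 0.118% of the 13539 genes tested were called lower and 0.0886% higher, with 0 of the 6 among those higher. The genes were chosen with this contrast known, so nothing is read from either count. The Nxph2 levels of cKO replicates 2 and 3 were both set to the floor, which narrows its cKO spread. The calls also depended on the processing: Nxph1 was called in 6 of 21 alternative fits and Nxph2 in 5, both together in 2. The fits that called either gene called 11 to 30 genes in all, of 11835 to 16968 tested, and several other fits called 0. The alternatives share arrays, so nothing is read from these counts. The differences were negative for both genes in every alternative that gave a value. In fits on fewer arrays that sign was fixed in advance, since the groups did not overlap. All 6 passed the filter on dim probes, Nxph2 through the control arrays alone. The median log2 difference over the 6 was -0.49, against 0.02 over all genes tested. In dissected tissue, fewer cells of a type and less RNA per cell cannot be told apart.

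The arrays lay on 2 slides, with cKO replicate 1 and control replicates 1 and 2 on slide 1 and the others on slide 2. The Nxph1 difference was -0.83 on slide 1 alone, -0.85 on slide 2 alone and -0.83 inside litter 2. For Nrxn2 the differences were -0.61, -0.58 and -0.84, and for Nrxn3 on its brighter probe -0.38, -0.40 and -0.50, in the same order. On the probes used for these 3 genes every cKO array lay below every control array. The negative sign in each part was thus fixed in advance, and only the sizes are described. For Nxph2 the values of -2.54, -2.36 and -2.23 are set by the floor on the cKO side and are bounds that depend on it; its processed signal was below every control in all 3 cKO arrays. Nxph3 had 0.12 on slide 1, -0.36 on slide 2 and -0.31 inside litter 2, and Nxph4 had 0.18, -0.08 and -0.06, so both changed sign between the slides. Slide 1 holds a single cKO array and has no spread in that group.

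Of 27 other genes of the neurexin pathway, 25 were tested and 0 passed in either direction with limma at an adjusted p of 0.05; 5 were lower and 0 higher at an unadjusted p of 0.05. Over all genes tested, 6.74% were lower and 4.34% higher at that unadjusted p. The median log2 difference of the 25 was -0.10, and 19 of them were below 0, against 45.7% of all genes tested. Lrrtm4 reached the well-above-background level on none of the arrays and Lrrtm1 had no named probe.

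Among the 16 neurexin ligand genes tested, 11 were below 0 and the median log2 difference was -0.10. The largest in size was Nlgn3, a neuroligin gene, with 0.87 ± 0.55. Its log2 levels were -0.44, -1.13 and -0.75 in cKO replicates 1 to 3, against -3.05, -0.66, -1.77 and -1.07 in control replicates 1 to 4, so the groups overlapped and control replicate 1 was far the lowest. Tafa1 and Tafa4, which encode secreted proteins that bind neurexins, had -0.74 ± 0.32 and -0.53 ± 0.20 (limma, adjusted p = 0.461 and 0.401). On the probe used for each gene, all 6 genes of the cytoplasmic scaffold that binds the neurexin tail were below 0, but 3 of their 11 probes with a value on every array, of Cask and Lin7a, were above 0. The largest differences by gene were -0.55 ± 0.35 for Apba1, -0.50 ± 0.12 for Apba2 and -0.29 ± 0.21 for Lin7b, none past the test.

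Khdrbs2, which encodes an RNA-binding protein of the family that controls neurexin splicing, had the smallest p of the 25 genes. Its log2 level was -0.51, -0.55 and -0.69 in cKO replicates 1 to 3, against 0.32, -0.02, 0.26 and 0.04 in control replicates 1 to 4. The groups did not overlap, but the difference of -0.73 ± 0.11 missed the threshold (limma, adjusted p = 0.0879). The related Khdrbs1 and Khdrbs3 had -0.04 ± 0.08 and 0.14 ± 0.08.

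**Figure D3:**
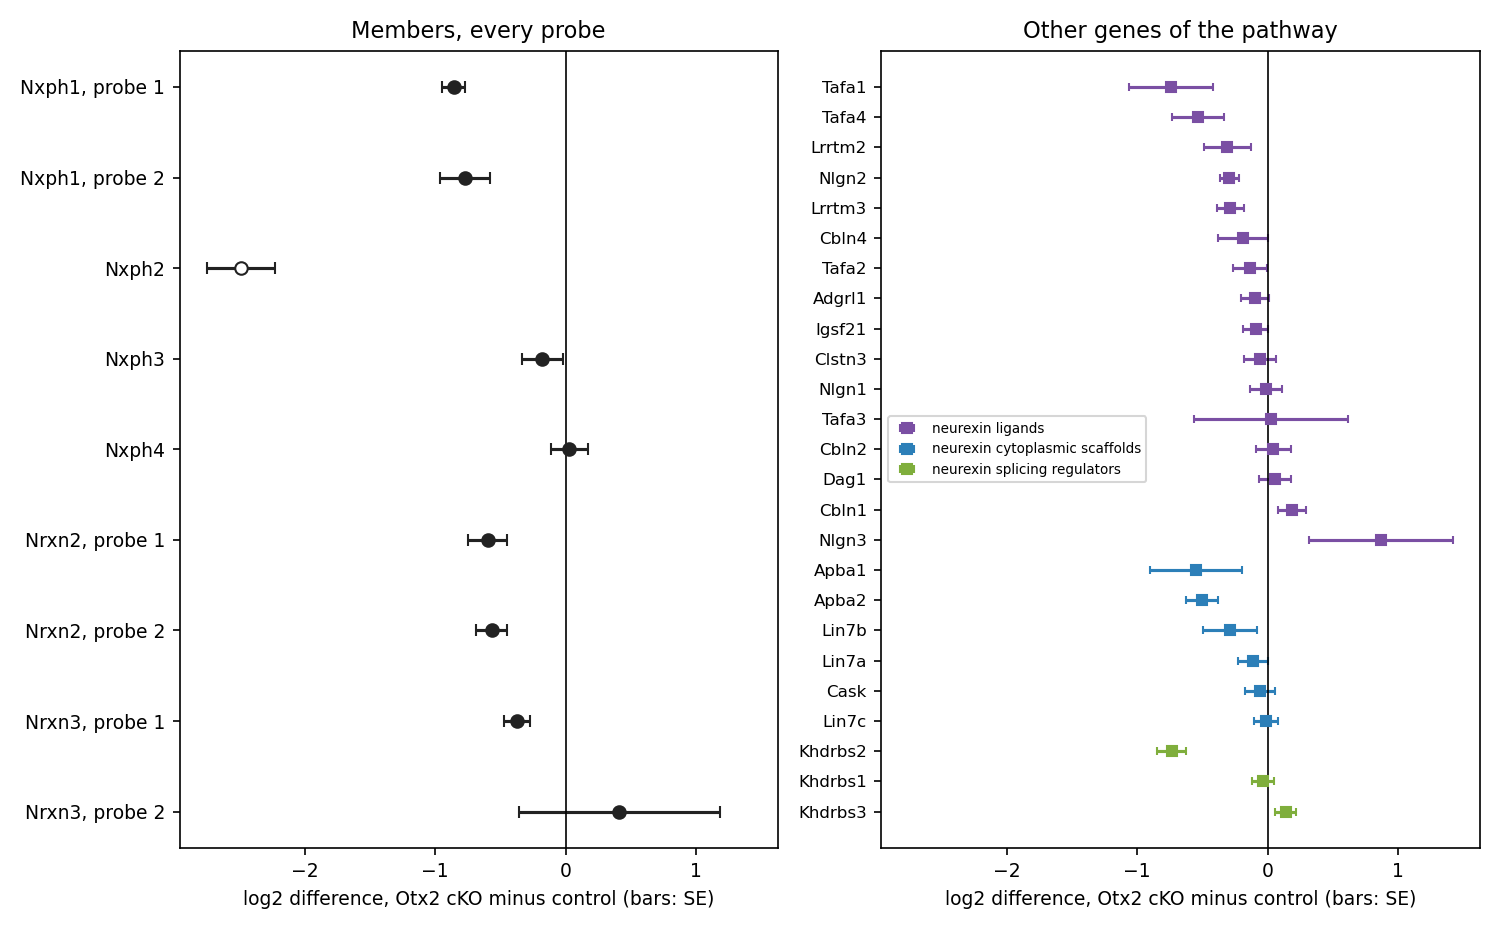
Log2 differences, Otx2 cKO minus control, with SE bars. The left panel gives every probe of the 6 genes, with Nxph2 open because it was not well above background in cKO, and the right panel the 25 other pathway genes by list, from Tafa1 at -0.74 to Nlgn3 at 0.87 among the ligands and Khdrbs2 at -0.73 among the splicing regulators.

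Of 11 measured MGE lineage genes 1 fell, 0 rose and 10 did not pass; the one that fell was Lhx8, a LIM homeobox gene of MGE neurons, with a log2 difference of -2.03 ± 0.17 (limma, adjusted p = 0.017). Lhx8 was called in 12 of 21 alternative fits, with adjusted p from 0.00581 to 0.335. The median of the list was -0.64, and 10 of the 11 were below 0. Limma gave 6 of the 11 lower and 0 higher at an unadjusted p of 0.05, against 6.74% and 4.34% of all genes tested. Over the 9 of these genes with a value on every array, the summed signal was 1693% to 2013% of the array's 75th percentile in cKO arrays and 4373% to 4958% in control arrays. All 12 markers on the list were well above background on at least 1 array. Nkx2-1, which specifies the MGE, had 0.13 ± 0.19. The part of these cells in the Nxph1 and Nxph2 differences was not tested.

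Of 8 GABAergic markers 0 passed, with a median of -0.29. The 6 of them with a value on every array had summed signals of 4047% to 4920.4% in cKO against 5560.5% to 6519.9% in control. Of 11 pan-neuronal markers 0 passed, with a median of -0.15 and summed signals of 17235% to 19411% in cKO against 20013% to 22419% in control. Limma gave 4 GABAergic and 2 pan-neuronal genes lower at an unadjusted p of 0.05 and 0 higher. The summed signals, which weigh bright genes most, did not overlap between the groups for either list, nor for the MGE lineage list. The same held for 5 pallial markers, at 2382% to 2708% in cKO against 3183% to 3941% in control. It also held for 5 scaffold genes, at 415% to 455% in cKO against 492% to 656% in control, a sum led by Apba2, the brightest of them. Relative to the control mean, the median log2 level of these 5 genes was 0.05, -0.55 and -0.43 in cKO replicates 1 to 3. In control arrays it was -0.20 to 0.08, so cKO replicate 1 lay inside the control range. The pan-neuronal sum was led by Tubb3, and the matching median of those 11 genes also put cKO replicate 1, at -0.06, among the controls. They spanned -0.08 to 0.04, with cKO replicates 2 and 3 below them at -0.23 and -0.13. For the MGE lineage, GABAergic and pallial lists this median was below every control on all 3 cKO arrays. How often other gene lists keep the groups apart was not tested. The part of the GABAergic and pan-neuronal lists in the neurexophilin and neurexin differences was not tested.

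Of 7 mesenchyme and pericyte markers 0 passed limma's test, adjusted or unadjusted, with a median of -0.50, and they spread widely in both groups. Set against the control mean, the median of the 6 with a value on every array was -1.99, 2.04 and -0.83 in cKO replicates 1 to 3, against 0.66, -2.23, 0.58 and 0.98 in control replicates 1 to 4. The 6 genes followed here had median shifts of -0.51, -0.44 and -0.56 in cKO, against -0.06, 0.0004, 0.14 and -0.12 in control. These 6 genes were picked with the group difference known, and the part of mesenchyme content in their shifts was not tested.

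**Figure D4:**
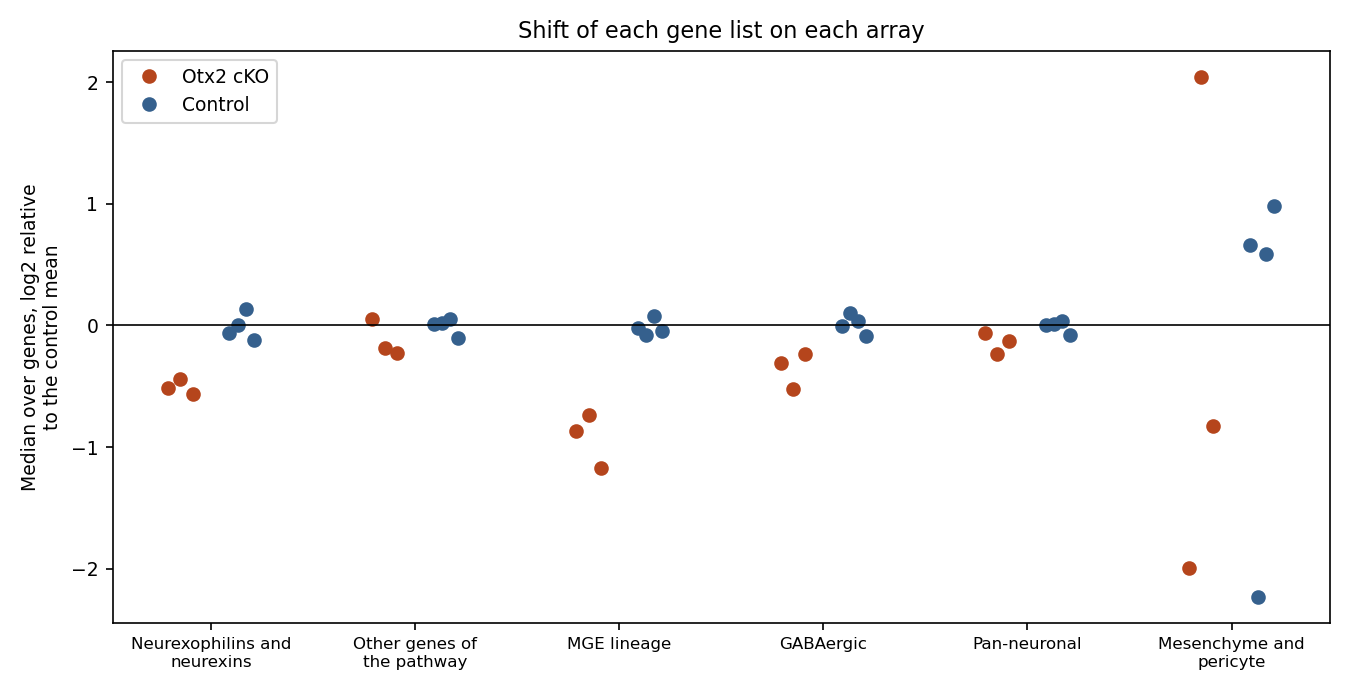
Median over the genes of each list with a value on every array, in log2 units relative to the control mean, on each array, with Otx2 cKO left of control. The neurexophilins and neurexins lie between -0.56 and -0.44 in cKO, the MGE lineage list between -1.17 and -0.74, and the mesenchyme list from -1.99 to 2.04.

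For each of the 5 genes well above background on all arrays, the 3 genes whose log2 levels followed it most closely over the 7 arrays were listed among 11834 others. For Nxph1 they included Gbx1 and Gnrh1, with Pearson correlations of 0.998 and 0.996 and log2 differences of -1.47 and -1.15. For Nrxn2 they were Ndst1, Zzef1 and Eral1, with 0.982, 0.973 and 0.973. For Nrxn3 they were Dnajc11, Pcnx3 and Arpc4, with 0.99, 0.986 and 0.984. For Nxph3 they were Cx3cl1, Fchsd1 and Hdac11, with 0.965, 0.963 and 0.958, and for Nxph4 Fscn1, Rai2 and Epb41, with 0.985, 0.973 and 0.972. These are descriptions over 7 arrays picked from many genes, and for Nxph1, Nrxn2 and Nrxn3 the points share the difference between the groups.

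**Figure D5:**
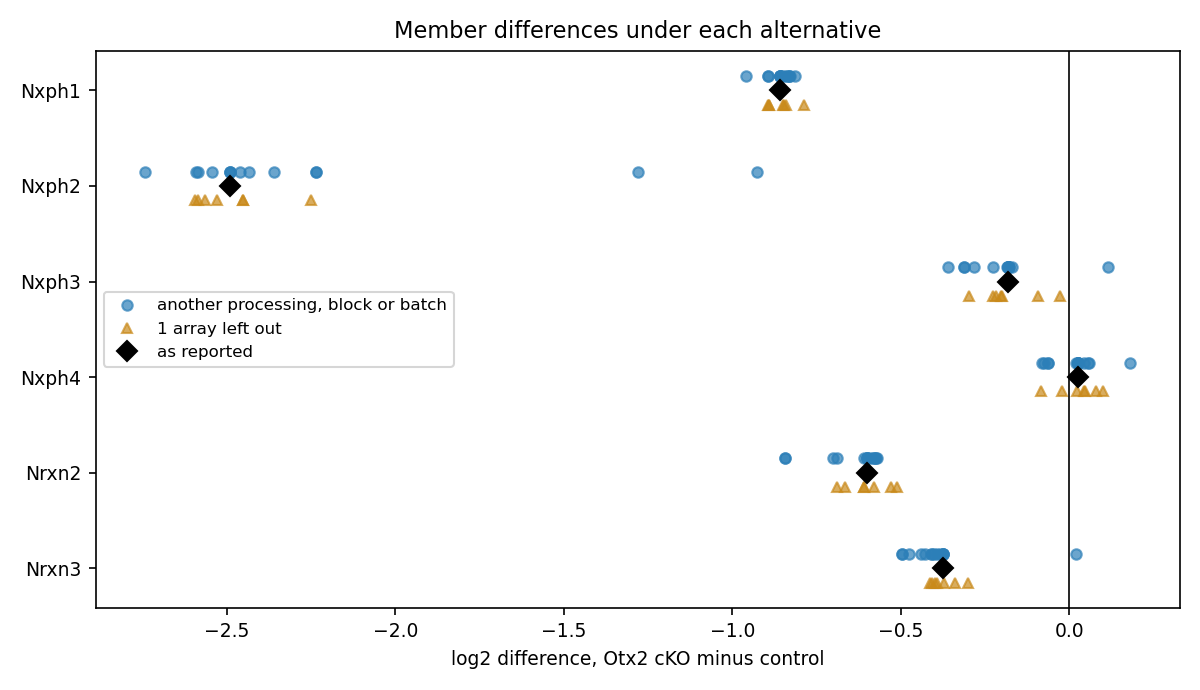
Log2 difference of each gene, Otx2 cKO minus control, as reported (diamonds), under other processing, blocks or batches (circles) and with 1 array left out (triangles). Nxph1 stays between -0.96 and -0.79 and Nrxn2 between -0.84 and -0.51, Nxph2 runs from -2.74 to -0.93, and Nxph4 lies on both sides of 0.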

How the data were processed

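Total RNA of 3 Otx2 cKO and 4 control embryos was amplified, labelled with Cy3 and put on Agilent arrays of the mouse genome, per the labels' protocols. Per the file headers, Agilent Feature Extraction 10.7.3.1 made the deposited intensity of each spot, background-subtracted and detrended within its array but with no scaling across arrays; version 10.5 is named in the submitters' processing notes. Other columns the authors deposited are the software's error and 0 or 1 flags for spots well above background or outlying. The authors' deposited table of log2 values was an alternative; its order of probes followed the raw median spot signal (rank correlation at least 0.9999), and its column medians were 7.62, 7.62 and 7.64 in cKO replicates 1 to 3 and 7.61, 7.63, 7.61 and 7.62 in control replicates 1 to 4. Its scale and between-array method are not given in the sources used here; its direction follows the signal.

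Control spots and outlier spots (1.24% to 2.51% per array) were left out. Each signal was set relative to the 75th percentile of its array, raised to a common floor (-7.49 in log2; per array the dimmest spot well above background was found, and the brightest of these 7 is the floor) and taken to log2; spots of a probe were averaged. Probes were named through RefSeq accessions of GRCm38.p6: 24844 had 1 symbol, 0 several and 16330 none. For each gene the brightest probe with at least 2 unflagged values per group was kept, and the gene was tested if 3 or more arrays showed that probe well above background. This left 13539 of 17178 genes, and 28 were called. R 4.3.3 with limma 3.58.1 (lmFit, then eBayes, with a term for group alone) gave the differences, with Benjamini-Hochberg adjustment and a threshold of 0.05; the steps were tested on simulated data. Replicates are separate embryos, and the number of arrays limits the precision.

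The members and the lists (27 pathway genes; MGE lineage, GABAergic, pan-neuronal, radial glia, pallial, mesenchyme and pericyte, endothelial, microglia and macrophage, and erythroid markers) were chosen with earlier results of these data known. Named were all members, list genes past the threshold or, in a pathway list with none, the 3 with the largest differences, and the 3 genes most like each member; others named were chosen after their values were seen. Some genes that this rule or the planned lists held are not reported here and are left out of the list counts. Alternatives varied scaling, background correction, value table, flags, probe choice, filter, floor, slide, litter, replicate number and single arrays; normexp used the median spot signal, since the files used here hold no mean signal.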

Additional observations from a re-analysis of the deposited data

Results flagged for a closer look

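In 2 of the 10 probe groups of 4 control arrays examined, the Otx2 probe included, 1 control stood apart from the others by more than Dixon's 95% limit for the gap over the range. On the brighter Nrxn3 probe the ratio was 0.86: control replicate 3, at 72.1% of the array's 75th percentile, was above replicates 1, 2 and 4, at 58.96%, 59.7% and 57.9%. Without it the Nrxn3 log2 difference was -0.30. On the brighter Nxph1 probe the ratio was 0.8299, barely over that limit. Control replicate 4, at 69.2%, was below replicates 1, 2 and 3, at 76.0%, 77.5% and 76.4%. Without it the log2 difference was -0.89. Chance flags about 1 in 20 such groups.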

How the results depend on the processing

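Leaving out 1 array at a time kept the log2 difference between -0.89 and -0.79 for Nxph1, -2.60 and -2.25 for Nxph2 (set by the floor in cKO), -0.69 and -0.51 for Nrxn2 and -0.41 and -0.30 for Nrxn3; Nxph3 ran from -0.30 to -0.03 and Nxph4 from -0.08 to 0.10. Values that moved by more than the spread between replicates were Nxph1 centred on array medians (-0.96, where the median of all genes was -0.08), Nxph2 under normexp with quantile normalization and in the authors' value table (-0.93 and -1.28), Nrxn2 within litter 2 and with litter as a block (-0.84 in both, which rest on the same 4 arrays), Nrxn3 as the mean of its probes (0.019) and Nxph3 within slide 1 (0.12), an alternative chosen after seeing the data. The Nrxn3 value follows from adding its dim probe, and the causes of the others were not tested. Nxph2 gave no value where every array had to be well above background. The count of 28 called genes (16 lower, 12 higher) was 43 in the authors' value table, 17 with slide as a block (11 lower and 6 higher), 11 with no filter, and 0 with litter as a block, with the replicate block, within slide 2 and within litter 2. At an unadjusted p of 0.05, limma gave 597, 882, 666 and 585 lower and 240, 633, 561 and 237 higher genes in those 4 fits. The count of called genes ran from 0 to 25 without 1 array, with 12 without control replicate 1, 3 without cKO replicate 2, and 0 without control replicate 2, 3 or 4 or cKO replicate 3. Nxph1 was past the threshold in 6 of 21 alternatives (quantile normalization, outlier spots kept, all arrays above background, no filter, each array's own floor, slide block) and Nxph2 in 5 (median centring, outlier spots kept, mean of probes, own floor, without control replicate 1). Neither was called under normexp, in the authors' value table, or without cKO replicate 1, 2 or 3. The fits that called either gene called 11 to 30 genes in all, of 11835 to 16968 tested. The alternatives share arrays and the genes were chosen with the contrast known, so nothing is read from these counts. Lhx8 was called in 12 of 21. Of the calls, 57.1% were lower as reported and 70.8% under quantile normalization. The count of 0 pathway genes called did not move in any of 21 alternatives. Replicate numbers do not mark litters here; same-numbered arrays had correlated deviations of 0.11, -0.53 and 0.03, so the pairing is by number only.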

Other observations

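Markers of other cells that the dissection could hold gave these values. Of 7 radial glia genes 0 passed limma's test and the median log2 difference was 0.14, with 0.58 ± 0.17 for Hes1, the only one past an unadjusted p of 0.05. Of 6 measured pallial genes 0 passed and the median was -0.09; the neuronal genes Neurod2 and Neurod6 had -0.80 ± 0.18 and -0.76 ± 0.16, both under an unadjusted p of 0.05. The medians were -0.06 for 6 endothelial, -0.15 for 5 microglia and macrophage and 0.06 for 5 erythroid genes, with 0 of each past the test, adjusted or unadjusted.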
